A study of Mus musculus with 12 samples.

Results

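Caveolae and transcytosis genes were followed in primary brain endothelial cells (BECs) of mice with and without cortistatin, a neuropeptide encoded by Cort. The group holds 9 genes that were picked by symbol: Cav1, Cav2, Cavin1, Cavin2, Cavin3, Ehd2, Pacsin2, Plvap and Mfsd2a. All 9 were listed among the 27321 genes that the deposited tables of both environments share (29965 genes in the NX/NG table and 29775 in the OGD-R table). BECs of C57BL/6 mice, either Cort+/+ or Cort-/- and 8 weeks old, were enriched in culture with puromycin. Each replicate was a pool from 3 mice, described by the labels as independent and biological. Cells were kept for 24 h in normoxia and normoglycemia (NX/NG; 21% O2, 5.5 mM glucose), or were deprived of oxygen and glucose for 4 h at 1% O2 and returned to NX/NG for 20 h (OGD-R), a culture model of ischemia and reperfusion. The labels also carry the name of a surgical stroke model (MCAO), which the study's methods do not give for these cultures. RNA was measured by RNA-seq in 10 libraries: Cort+/+ replicates 1, 2 and 3 and Cort-/- replicates 1 and 2 under NX/NG, and Cort+/+ replicates 1, 2 and 3 and Cort-/- replicates 1 and 3 after OGD-R. Of the 12 samples listed 2 were not analysed here, namely the third Cort-/- pool under NX/NG and the second Cort-/- pool after OGD-R. Cort+/+ replicate 1 after OGD-R, which a heatmap of the study does not show, was kept, and values without it are given beside the results.

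Caveolae are small flask-shaped pits of the plasma membrane. Caveolin proteins sit in the membrane, cavin proteins coat them from the cytosol, and EHD2 and pacsin 2 hold the neck. In peripheral endothelium they carry albumin and other cargo across the cell, whereas the endothelium of the blood-brain barrier keeps such vesicles few. MFSD2A, a transporter of lysophospholipids that carry docosahexaenoic acid, alters the membrane in a way that suppresses caveolae at that barrier. PLVAP forms the diaphragms of caveolae and fenestrae, is abundant in leaky vessels, and is low in mature barrier vessels.

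Promoter sequence is shown for Cav1 and Cav2, the pair whose levels moved together most closely, for Cavin2, which moved the other way, and for Mfsd2a, the member with the fewest reads. The sequences are those of RefSeq on GRCm38.p6, the 250 bases before the annotated start, 5′ to 3′ on the strand of the gene. Of the 9 members 7 have an entry in the promoter table, and Cavin3 and Plvap do not. Capitals mark GGGCGG (a GC box) and the hypoxia response cores ACGTG and GCGTG, each searched on both strands.
Cav1, chr6:17306085-17306334, plus strand: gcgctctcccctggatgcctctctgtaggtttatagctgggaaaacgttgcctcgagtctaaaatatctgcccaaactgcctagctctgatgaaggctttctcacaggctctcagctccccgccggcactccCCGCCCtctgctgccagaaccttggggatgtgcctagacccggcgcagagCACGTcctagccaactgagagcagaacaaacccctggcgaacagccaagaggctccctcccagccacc
Cav2, chr6:17280935-17281184, plus strand: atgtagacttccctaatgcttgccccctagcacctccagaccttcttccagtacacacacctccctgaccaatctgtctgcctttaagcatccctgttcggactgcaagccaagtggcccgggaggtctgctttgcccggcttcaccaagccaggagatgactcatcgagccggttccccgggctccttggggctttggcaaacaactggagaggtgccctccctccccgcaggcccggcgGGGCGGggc
Cavin2, chr1:51288876-51289125, plus strand: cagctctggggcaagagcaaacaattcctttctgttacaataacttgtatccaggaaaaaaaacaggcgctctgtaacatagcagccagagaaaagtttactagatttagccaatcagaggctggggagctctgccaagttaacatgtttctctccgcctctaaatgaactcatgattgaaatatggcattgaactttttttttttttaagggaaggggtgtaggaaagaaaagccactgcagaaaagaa
Mfsd2a, chr4:122961189-122961438, minus strand: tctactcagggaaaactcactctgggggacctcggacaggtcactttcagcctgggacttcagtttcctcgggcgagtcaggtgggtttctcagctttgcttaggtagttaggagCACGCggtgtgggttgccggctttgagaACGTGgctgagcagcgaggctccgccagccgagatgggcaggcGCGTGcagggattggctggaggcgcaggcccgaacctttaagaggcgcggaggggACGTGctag
The Cav1 and Cav2 windows each hold 1 GC box, and the Cavin2 and Mfsd2a windows hold none. The Mfsd2a window holds 2 matches of ACGTG and 2 of GCGTG, the Cav1 window 1 match of ACGTG, and the Cav2 and Cavin2 windows none of either. GC content is 59.6% for Cav1, 62.0% for Cav2 and 61.6% for Mfsd2a, against 40.4% for Cavin2. Over all 32807 promoter windows of this length, 32.7% hold GGGCGG, 16.6% ACGTG and 28.1% GCGTG on either strand. The ETS core CCGGAA (12.0% of all windows) is absent from these 4 windows, and TATAAA (12.4%) is found once, on the minus strand of the Cav1 window. Cav1 has another annotated start, whose window (chr6:17307390-17307639) is not shown and holds no match of any of these motifs. Such a match describes the letters of the window.

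Cav1 (chromosome 6, 17306335 to 17341452) and Cav2 (chromosome 6, 17281185 to 17289115) lie on the same strand, with 17219 bases between them, in GENCODE vM21 on GRCm38. The other members are Cavin1 (chromosome 11, 100956733 to 100970887), Cavin2 (chromosome 1, 51289126 to 51302960), Cavin3 (chromosome 7, 105480083 to 105482300), Ehd2 (chromosome 7, 15946958 to 15967567), Pacsin2 (chromosome 15, 83375607 to 83464606), Plvap (chromosome 8, 71497765 to 71511752) and Mfsd2a (chromosome 4, 122946850 to 122961188). Of genes that overlap a member on the opposite strand, Gtpbp3 at the end of Plvap had 166 to 257 reads per library and Gm45667 over Cavin3 had 180 to 331, and the antisense transcripts over Cav1, Cav2 and Cavin2 had at most 8. The counting strand is not given in the sources used here, so reads of Plvap and Gtpbp3, or of Cavin3 and Gm45667, could have been assigned to either gene where they overlap.

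Between 12386048 and 12390428 reads on genes per library were recovered from the deposited RPKM (reads for each kilobase of a gene, adjusted for library size). Reads on Cort itself numbered 2, 1 and 1 under NX/NG in Cort+/+ libraries, with 1 read in 1 of the Cort+/+ OGD-R libraries and 0 elsewhere, too few to check the genotype labels. The ribosomal RNA Rn18s-rs5 made up 7.64% to 15.8% of the reads except in 2 OGD-R libraries, Cort-/- replicate 3 (0.0951%) and Cort+/+ replicate 1 (0.0775%), which are called low in ribosomal RNA below. The 10 endothelial markers, Pecam1 and Cdh5 among them, had reads in every library and summed to 1064 to 1538 RPKM. The 11 pericyte and smooth muscle markers summed to 653 to 1121 RPKM, of which Acta2, smooth muscle actin, made up 96.2% to 97.1%, and the pericyte markers Kcnj8 and Abcc9 were at 0 in 5 and 6 libraries. Col1a1 and Col1a2 carried most of the fibroblast sum, which came to 64.8 to 95.9 RPKM in Cort-/- NX/NG libraries and 159 to 284 RPKM in the other groups. Epithelial markers summed to 8.82 to 58.6 RPKM, the macrophage and microglial markers to at most 2.06 RPKM and the astrocyte markers to at most 4.13 RPKM. Of the defining markers, Itgam and Aqp4 were absent from the OGD-R table, Tyrobp from both, Itgam was at 0 in the Cort-/- NX/NG libraries and Aqp4 in the Cort+/+ NX/NG libraries. In such bulk RNA, fewer cells of a type and less RNA per cell cannot be told apart.

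Caveolin 1, the main structural protein of the caveolar coat, was encoded by one of the most abundant transcripts of these cultures. Cav1 ranked between 42 and 80 among the genes of a library by RPKM. It stood at 439.9, 413 and 601 RPKM in Cort+/+ NX/NG replicates 1, 2 and 3, at 595 and 692 RPKM in Cort-/- NX/NG replicates 1 and 2, at 349.7, 474 and 623 RPKM in Cort+/+ OGD-R replicates 1, 2 and 3, and at 639 and 459.8 RPKM in Cort-/- OGD-R replicates 1 and 3. Under NX/NG the groups overlapped through Cort+/+ replicate 3, and after OGD-R the lowest library of each genotype was the library low in ribosomal RNA. Caveolin 2, the partner that assembles with caveolin 1, had 63.3, 54.1 and 82.9 RPKM in the Cort+/+ NX/NG libraries, 85.0 and 98.3 RPKM in the Cort-/- NX/NG libraries, 49.2, 61.7 and 93.3 RPKM in the Cort+/+ OGD-R libraries, and 95.8 and 63.7 RPKM in the Cort-/- OGD-R libraries. Every library that was high in Cav1 was high in Cav2. Across the 10 libraries Cav1 varied 1.98-fold and Cav2 2.00-fold between the lowest and the highest, whereas the ratio of Cav1 to Cav2 stayed between 6.67 and 7.68.

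Cavin 1 is required for caveolae to form at all. Cavin1 was the steadiest of the coat genes, with 271, 277 and 275 RPKM in the Cort+/+ NX/NG libraries, 248 and 227 RPKM in the Cort-/- NX/NG libraries, 272, 284 and 256 RPKM in the Cort+/+ OGD-R libraries and 229 and 279 RPKM in the Cort-/- OGD-R libraries. Both Cort-/- libraries lay below every Cort+/+ library under NX/NG, while the groups overlapped after OGD-R. Cavin 2 shapes the membrane of caveolae, and its transcript had 61.6, 57.5 and 44.8 RPKM in the Cort+/+ NX/NG libraries, 46.7 and 34.1 RPKM in the Cort-/- NX/NG libraries, 56.5, 46.4 and 44.7 RPKM in the Cort+/+ OGD-R libraries and 29.4 and 56.7 RPKM in the Cort-/- OGD-R libraries. The lowest and one of the highest Cavin2 levels came from the same group, Cort-/- after OGD-R. Cavin 3 helps to link caveolae to their motion and signalling, and Cavin3 had 39.8, 46.0 and 51.7 RPKM in the Cort+/+ NX/NG libraries, 53.1 and 51.1 RPKM in the Cort-/- NX/NG libraries, 45.3, 55.8 and 47.5 RPKM in the Cort+/+ OGD-R libraries and 47.0 and 60.5 RPKM in the Cort-/- OGD-R libraries. All groups overlapped for Cavin2 and Cavin3.

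EHD2 is an ATPase that surrounds the neck and keeps caveolae at the surface, and pacsin 2 is a membrane-bending protein of the same neck. Ehd2 had 110.2, 117 and 126 RPKM in the Cort+/+ NX/NG libraries, 129.7 and 137 RPKM in the Cort-/- NX/NG libraries, 109, 113 and 118.4 RPKM in the Cort+/+ OGD-R libraries and 139 and 118.7 RPKM in the Cort-/- OGD-R libraries. Pacsin2 had 24.1, 25.3 and 27.6 RPKM in the Cort+/+ NX/NG libraries, 28.9 and 30.01 RPKM in the Cort-/- NX/NG libraries, 25.5, 24.9 and 27.5 RPKM in the Cort+/+ OGD-R libraries and 30.01 and 27.9 RPKM in the Cort-/- OGD-R libraries. Both genes were higher in every Cort-/- library than in every Cort+/+ library of the same environment, by a narrow margin after OGD-R.

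Plvap had 16.4, 26.0 and 15.8 RPKM in the Cort+/+ NX/NG libraries, 25.8 and 20.7 RPKM in the Cort-/- NX/NG libraries, 20.1, 16.1 and 6.48 RPKM in the Cort+/+ OGD-R libraries and 14.8 and 27.6 RPKM in the Cort-/- OGD-R libraries. It varied most among the members, 4.25-fold between libraries with 154 to 747 reads, and the groups overlapped in every comparison. Relative to Cav1, Plvap RPKM came to a ratio between 0.0104 and 0.0631. Mfsd2a had 0.290, 0.474 and 0.347 RPKM in the Cort+/+ NX/NG libraries, 0.324 and 0.560 RPKM in the Cort-/- NX/NG libraries, 0.388, 0.200 and 0.372 RPKM in the Cort+/+ OGD-R libraries and 0.265 and 0.456 RPKM in the Cort-/- OGD-R libraries. These values rest on 5 to 16 reads per library, so differences in Mfsd2a were not detectable at this depth unless they were large.

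**Figure D1:**
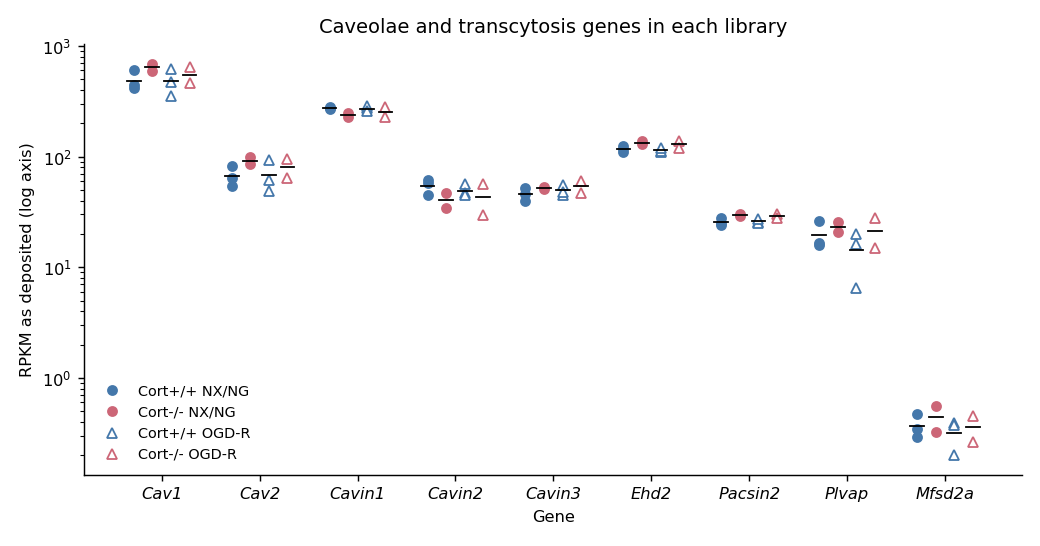
RPKM as deposited (log axis) of the 9 genes, with a point for each library and a black line at the mean of each group (Cort+/+ n = 3 and Cort-/- n = 2 in each environment). Cav1 lies highest at 349.7 to 692 RPKM and Mfsd2a lowest at 0.200 to 0.560 RPKM, and the groups of most genes overlap.

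By level per gene length, the members fell into the order Cav1, Cavin1, Ehd2, Cav2, Cavin3, Cavin2, Pacsin2, Plvap and Mfsd2a by their medians over the 10 libraries (534, 272, 119, 73.3, 49.3, 46.6, 27.6, 18.3 and 0.359 RPKM). The ranges of Cav1, Cavin1, Ehd2 and Cav2 did not overlap with those of their neighbours in that order, apart from Cav2 and Cavin3. Cav2, Cavin3 and Cavin2 overlapped in turn, as did Cavin2 with Pacsin2 and Pacsin2 with Plvap, and Mfsd2a lay below every other member.

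The first comparison asked whether loss of cortistatin changed these genes in cells that were well supplied. Under NX/NG, Cav1 averaged 643 ± 68.5 RPKM in the Cort-/- group (SD, n = 2) and 485 ± 102 RPKM in the Cort+/+ group (SD, n = 3), a log2 fold change of 0.42 (SE 0.19) on the log2(RPKM + 0.1) scale. Cavin1 averaged 237 ± 15.0 RPKM in the Cort-/- group (SD, n = 2) and 274 ± 3.16 RPKM in the Cort+/+ group (SD, n = 3), a log2 fold change of -0.21 (SE 0.06). Pacsin2 averaged 29.4 ± 0.806 RPKM in the Cort-/- group (SD, n = 2) and 25.7 ± 1.80 RPKM in the Cort+/+ group (SD, n = 3), a log2 fold change of 0.20 (SE 0.08). At an FDR of at most 0.05 limma called 0 of the 8 members tested, as it called 0% of all 15695 genes tested. Mfsd2a was not among them, as its mean was below 0.5 RPKM in every fit. At an unadjusted p under 0.05 there were 2 members, Cavin1 (limma FDR = 0.336) and Pacsin2 (limma FDR = 0.386), where 12.5% of all genes tested were below that threshold. With limma-voom on the recovered reads 0 members and 54 genes were called, and 6 of the 8 members had an unadjusted p under 0.05, where 15% of all genes did (2359 genes). The study, with its own pipeline, reported genes at an FDR of 0.05 in this comparison. It did so too between genotypes after OGD-R and between environments in each genotype. Calls of 0 in the present fits thus do not show that no gene differed.

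Of the other members, Cav2, Cavin3 and Ehd2 had log2 fold changes of 0.18 to 0.48, and Cavin2 had -0.44, with an FDR of 0.405 to 0.540. Plvap averaged 23.3 ± 3.62 RPKM in the Cort-/- group (SD, n = 2) and 19.4 ± 5.74 RPKM in the Cort+/+ group (SD, n = 3), a log2 fold change of 0.29 (SE 0.25, limma FDR = 0.658). The median over the 8 members was 0.20, beside 0.01 over all genes tested. Libraries of the genotypes did not overlap for 4 members, higher in Cort-/- BECs for Cav2, Ehd2 and Pacsin2 and lower for Cavin1, where 32% of all genes tested did not overlap. In a fit without the filter Mfsd2a had a log2 fold change of 0.19 (SE 0.36).

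Single libraries weighed on this comparison. Of the 8 members tested, the number at an unadjusted p under 0.05 was 2 without Cort-/- replicate 1 (11% of all genes tested), 0 without Cort-/- replicate 2 (6.69%), 0 without Cort+/+ replicate 1 (7.52%) and 1 without Cort+/+ replicate 2 (9.4%). It was 7 without Cort+/+ replicate 3 (17% of all genes), the Cort+/+ library that was nearest to the Cort-/- libraries in Cav1, Cav2, Ehd2 and Pacsin2. The log2 fold change of Plvap was 0.13 without Cort-/- replicate 1, 0.45 without Cort-/- replicate 2, 0.19 without Cort+/+ replicate 1, 0.52 without Cort+/+ replicate 2 and 0.16 without Cort+/+ replicate 3.

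Cell type markers moved in the same libraries. The endothelial markers summed to 1375 to 1509 RPKM in the Cort-/- and 1064 to 1337 RPKM in the Cort+/+ NX/NG libraries, and the pericyte and smooth muscle markers to 821 to 934 and 878 to 1121 RPKM. The fibroblast markers summed to 64.8 to 95.9 RPKM in the Cort-/- and 159 to 227 RPKM in the Cort+/+ libraries. Relative to the endothelial sum, Cav1 came to 44.6% ± 1.81 in the Cort-/- group (SD, n = 2). It came to 41.3% ± 3.63 in the Cort+/+ group (SD, n = 3). The log2 difference of this ratio was 0.11, beside 0.42 for the level of Cav1 itself. Ehd2 and Pacsin2 relative to the endothelial sum had log2 differences of -0.13 and -0.11, opposite in sign to those of their own levels. Relative to the pericyte and smooth muscle sum, which was mostly Acta2, Cavin1 came to 27.1% ± 0.75 in the Cort-/- group (SD, n = 2). It came to 27.0% ± 3.75 in the Cort+/+ group (SD, n = 3). The log2 difference of this ratio was 0.01, beside -0.21 for the level of Cavin1 itself. Cavin2 relative to the same sum had a log2 difference of -0.21, beside -0.44 for its own level. Relative to the endothelial sum, the log2 differences of Cavin1 and Cavin2 were larger than those of their own levels, at -0.52 and -0.75. Only Cavin1 and Cavin2 were divided by the pericyte and smooth muscle sum, and no member by the fibroblast sum. Over all 10 libraries Cav1 rose with the endothelial sum (r = 0.88). Cavin1 and Cavin2 rose with the pericyte and smooth muscle sum (r = 0.80 and 0.87). Dividing a gene by a sum that it follows removes variation they share, whatever its source. These ratios thus cannot separate cell type shares from levels, and the part of such shares was not tested.

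The comparison of genotypes after OGD-R used other libraries. Cav1 averaged 549.6 ± 127 RPKM in the Cort-/- group (SD, n = 2) and 482 ± 137 RPKM in the Cort+/+ group (SD, n = 3), a log2 fold change of 0.21 (SE 0.29). Plvap averaged 21.2 ± 8.98 RPKM in the Cort-/- group (SD, n = 2) and 14.2 ± 7.0 RPKM in the Cort+/+ group (SD, n = 3), a log2 fold change of 0.65 (SE 0.53). Neither difference was larger than the spread between replicates. At an FDR of at most 0.05 limma called 0 of the 8 members, as it called 0% of all 15785 genes tested, and 0 members had an unadjusted p under 0.05, where 3.59% of all genes did. With limma-voom 0 members and 1 gene were called, and 0 members had an unadjusted p under 0.05. The log2 fold changes of Cav2, Cavin3, Ehd2 and Pacsin2 were 0.25, 0.11, 0.18 and 0.16, and those of Cavin1 and Cavin2 were -0.10 and -0.26.

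The 8 members had the same sign of their log2 fold change in both environments, 6 above and 2 below 0, as had 65.9% of the 15358 genes tested in both. This did not hold with every library left out in turn. Without Cort-/- replicate 1 after OGD-R, Cav1, Cav2, Cavin1 and Cavin2 turned to -0.03, -0.05, 0.05 and 0.21, and without Cort-/- replicate 3 Cavin3 turned to -0.07. The median after OGD-R was 0.17, beside -0.01 over all genes tested. Ehd2 and Pacsin2 were the members whose genotypes did not overlap after OGD-R, 2 of 8, where 16.3% of all genes tested did not overlap. Mfsd2a had a log2 fold change of 0.13 (SE 0.42) in the fit without the filter. Leaving out the libraries low in ribosomal RNA also moved these values. Without Cort+/+ replicate 1 the log2 fold change was -0.003 for Cav1 and 0.98 for Plvap, without Cort-/- replicate 3 it was 0.45 and 0.21, and without both it was 0.24 and 0.53. Cavin2 had a log2 fold change of -0.73 without Cort-/- replicate 3 and of -0.63 without both, and was then the 1 member at an unadjusted p under 0.05, where 6.42% and 6.33% of all genes were (limma FDR = 0.656 and 0.677). Cort-/- replicate 1 and Cort+/+ replicate 3 also weighed on Plvap, which stood at 1.1 without the former and at 0.17 without the latter, and Cav1 was 0.41 without the latter. The endothelial markers summed to 1239 to 1538 RPKM in Cort-/- and 1146 to 1267 RPKM in Cort+/+ OGD-R libraries. Relative to the endothelial sum, the log2 difference of Cav1 was 0.01 and that of Plvap 0.46. As under NX/NG, a ratio of Cav1 to a sum that it follows cannot separate cell type shares from levels.

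**Figure D2:**
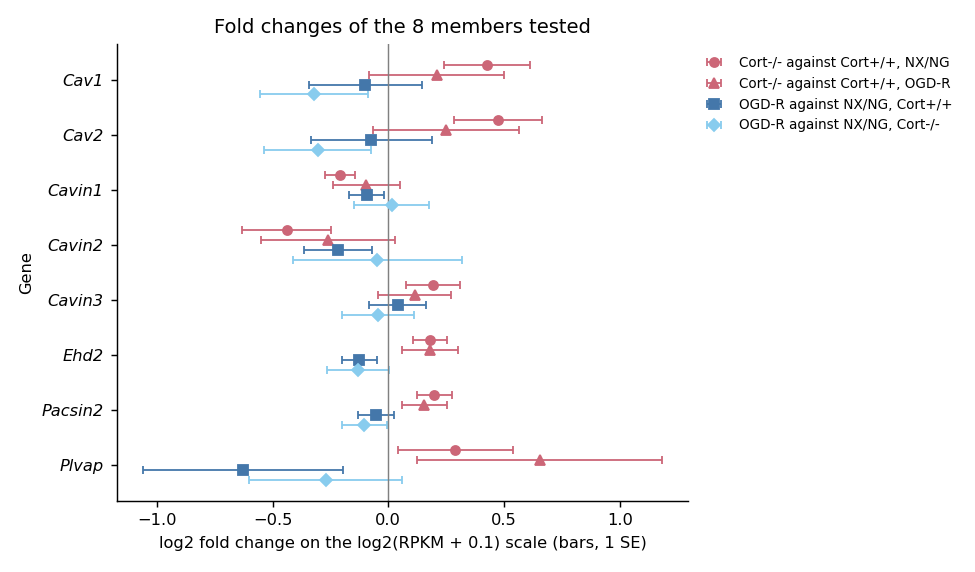
Log2 fold changes (points) with 1 SE (bars) of the 8 members tested in the 4 comparisons, on the log2(RPKM + 0.1) scale. In Cort-/- against Cort+/+ BECs 6 members lie above 0 and Cavin1 and Cavin2 below 0 in both environments, with 1 SE reaching 0 for Cavin1, Cavin2, Cavin3, Cav1 and Cav2 after OGD-R, and none of the 32 values passed an FDR of 0.05.

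Environments were compared on reads of both tables scaled together, since the tables had been scaled apart. In Cort+/+ BECs, Cav1 had a log2 fold change of -0.10 (SE 0.24) after OGD-R against NX/NG and Plvap of -0.63 (SE 0.43), with an FDR of 0.963 and 0.845 by limma. Jointly scaled Plvap stood at 16.8, 26.6 and 16.2 RPKM in NX/NG replicates 1, 2 and 3 and at 19.6, 15.7 and 6.32 RPKM in OGD-R replicates 1, 2 and 3. Without Cort+/+ OGD-R replicate 3, which held the lowest level, the log2 fold change of Plvap was -0.14, and it was -0.95 without OGD-R replicate 1 and -0.40 without NX/NG replicate 2. The log2 fold change of Cav1 turned to 0.11 without OGD-R replicate 1 and to 0.07 without NX/NG replicate 3, and it was -0.16, -0.21 and -0.30 without NX/NG replicate 1, NX/NG replicate 2 and OGD-R replicate 3. The remaining 6 members had log2 fold changes of -0.22 to 0.04. At an FDR of at most 0.05 limma called 0 of the 8 members and 0% of all 15759 genes, and 0 members had an unadjusted p under 0.05, where 6.5% of all genes did. Limma-voom called 0 members and 0 genes, with 0 members and 973 genes at an unadjusted p under 0.05, and limma had 1025 genes there. Without NX/NG replicate 3, Cavin2 was the 1 member at an unadjusted p under 0.05 (log2 fold change -0.35), where 4.81% of all genes were. Cavin1 was the member whose groups did not overlap, lower after OGD-R, where 12.4% of all genes tested did not overlap.

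In Cort-/- BECs, Cav1 had a log2 fold change of -0.32 (SE 0.23) after OGD-R against NX/NG and Plvap of -0.27 (SE 0.33), with an FDR of 0.938 and 0.949 by limma. Jointly scaled Cav1 was 612 and 712 RPKM in NX/NG replicates 1 and 2 and 623 and 448 RPKM in OGD-R replicates 1 and 3. The groups overlapped, and the OGD-R library low in ribosomal RNA was the lowest. Without it, the log2 fold change was -0.08 for Cav1 and -0.71 for Plvap, and without OGD-R replicate 1 it was -0.56 for Cav1 and 0.17 for Plvap. Without NX/NG replicate 1 it was -0.43 and -0.11, and without NX/NG replicate 2 it was -0.21 and -0.43. At an FDR of at most 0.05 limma called 0 of the 8 members and 0% of all 15676 genes, and 0 members had an unadjusted p under 0.05, where 3.87% of all genes did. Limma-voom called 0 members and 0 genes, with 0 members and 637 genes at an unadjusted p under 0.05, and limma had 607 genes there. Without OGD-R replicate 1 there were 2 members at that threshold, Cav1 and Cav2 (log2 fold change -0.60), where 15.2% of all genes were, and without OGD-R replicate 3 there was 1, Plvap, where 4.53% were. Pacsin2 was the member whose groups did not overlap, lower after OGD-R, where 34.3% of all genes tested did not overlap. Mfsd2a had log2 fold changes of -0.23 (SE 0.32) in Cort+/+ and -0.29 (SE 0.44) in Cort-/- BECs in the fits without the filter.

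Whether the response to OGD-R differed with the genotype was tested as an interaction over the 10 libraries. Limma called 0 of the 8 members and 0% of all 15714 genes at an FDR of at most 0.05, and 0 members had an unadjusted p under 0.05, where 1.88% of all genes did. Limma-voom called 0 members and 0 genes, with 0 members and 239 genes at an unadjusted p under 0.05. The interaction was -0.22 (SE 0.38) for Cav1 and 0.36 (SE 0.67) for Plvap on the log2 scale, and -0.06 (SE 0.53) for Mfsd2a without the filter. Without Cort-/- OGD-R replicate 3 the values of Cav1 and Plvap turned to 0.02 and -0.09. Each of these standard errors was larger than the value it belongs to, so an equal response of the genotypes was not shown either.

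Some members varied together from library to library, and the sets named here were read from these values. Pearson's r and Spearman's rho were computed on log2 of the jointly scaled RPKM over the 10 libraries. This was done for the 36 pairs of members and for each member against 3 marker sums, 63 relations in all. Each had 100000 permutations, with Benjamini-Hochberg adjustment over the 63. The permutations ran over all 10 libraries without regard to group, so a difference between groups that 2 genes share can add to r and lower p. Whether the environments shared pools of mice is not known, so the 10 libraries may not be independent. For Cav1 and Cav2, r was 0.99 (permutation p = 6e-05, adjusted p = 0.00189) and rho 0.92 (permutation p = 0.00061, adjusted p = 0.00893), and r was 0.98 without the 2 libraries farthest from the median of Cav1. For Ehd2 and Pacsin2, the genes of the neck, r was 0.94 (permutation p = 0.0002, adjusted p = 0.00315) and rho 0.92 (permutation p = 0.00064, adjusted p = 0.00893), with 0.90 without the 2 farthest. For Cav1 and Ehd2, r was 0.85 (permutation p = 0.00312, adjusted p = 0.0140) and rho 0.78 (permutation p = 0.0111, adjusted p = 0.05004), with 0.72 without the 2 farthest. Cav1 with Pacsin2, Cav2 with Ehd2 and Cav2 with Pacsin2 had r of 0.84, 0.82 and 0.83.

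Cavin1 and Cavin2 formed the other set, with r of 0.86 (permutation p = 0.00196, adjusted p = 0.0103) and rho of 0.75 (permutation p = 0.0177, adjusted p = 0.0586). This relation rested in part on the 2 libraries farthest from the median of Cavin1, since r was 0.46 without them. Between the sets r was negative for all 8 pairs, from -0.61 for Cavin1 with Ehd2 to -0.74 for Cav2 with Cavin2, and the adjusted p was above 0.05 for 6 of them (0.0836 to 0.133). Without the 2 farthest libraries r between the sets ranged from -0.06 for Cavin1 with Ehd2 to -0.73 for Cav2 with Cavin1, and it was -0.35 for Cavin1 with Pacsin2. For Cav1 and Cavin2, r was -0.73 (permutation p = 0.0145, adjusted p = 0.0434) and rho -0.78 (permutation p = 0.0103, adjusted p = 0.04996), with -0.71 without the 2 farthest. In all, 9 of the 36 pairs had an adjusted p of at most 0.05 for r and 3 for rho, Cav1 with Cav2, Ehd2 with Pacsin2 and Cav1 with Cavin2. The share of all gene pairs, or of all genes against the marker sums, at such values was not computed. These counts thus do not set the members apart from other genes. After the mean of each group was subtracted, r was 0.98 for Cav1 and Cav2, 0.88 for Ehd2 and Pacsin2, 0.79 for Cavin1 and Cavin2 and -0.79 for Cav1 and Cavin2, values that were not tested. Without the 2 libraries low in ribosomal RNA the same values were 0.98, 0.97, 0.87 and -0.74. With 5 libraries in each environment, r was not computed within environments.

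**Figure D3:**
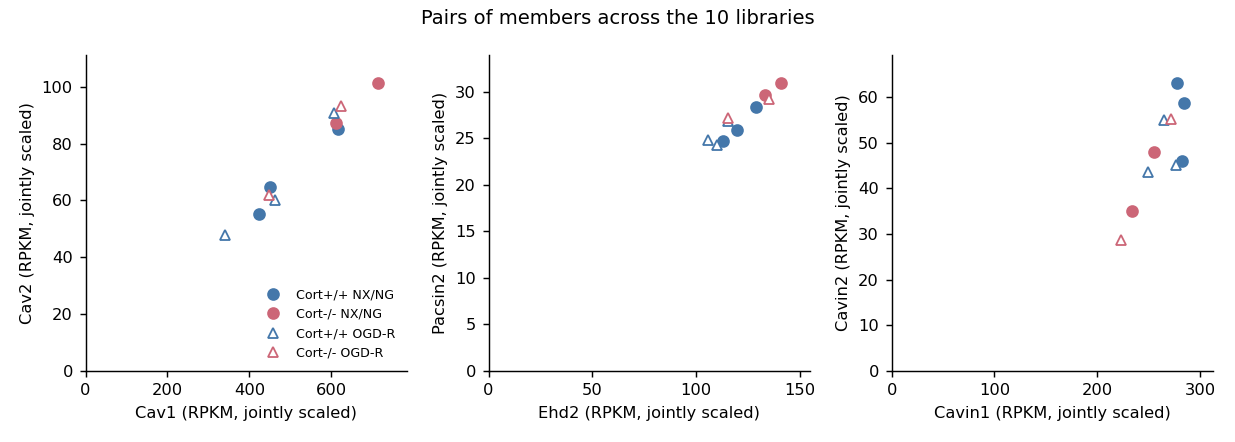
Jointly scaled RPKM of 3 pairs of members, with a point for each of the 10 libraries and axes that start at 0. Cav1 and Cav2 keep a nearly constant ratio (r = 0.99), Ehd2 and Pacsin2 follow a line over a narrow range (r = 0.94), and Cavin1 and Cavin2 (r = 0.86) spread more widely.

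The caveolin and neck genes varied with the endothelial markers, and Cavin1 and Cavin2 with the pericyte and smooth muscle sum, which was mostly Acta2. The study reported cells with the pericyte markers Cspg4, Kcnj8 and Vtn as barely detectable, and which cells carried this sum was not tested. With the endothelial sum, r was 0.88 for Cav1 (permutation p = 0.00131, adjusted p = 0.00917), 0.87 for Cav2 (permutation p = 0.00238, adjusted p = 0.0115), 0.93 for Ehd2 (permutation p = 0.00052, adjusted p = 0.00546) and 0.94 for Pacsin2 (permutation p = 0.00013, adjusted p = 0.00273). Spearman's rho was 0.89, 0.84, 0.87 and 0.90 for the 4 genes (permutation p = 0.0013, 0.00396, 0.00225 and 0.00072, adjusted p = 0.0117, 0.0230, 0.0158 and 0.00893), and r without the 2 farthest libraries was 0.87, 0.83, 0.84 and 0.96. With the pericyte and smooth muscle sum, r was 0.80 for Cavin1 (permutation p = 0.00477, adjusted p = 0.0188; rho 0.75, permutation p = 0.0172, adjusted p = 0.0586) and 0.87 for Cavin2 (permutation p = 0.00123, adjusted p = 0.00917; rho 0.84, permutation p = 0.00401, adjusted p = 0.0230). These were 0.59 and 0.65 without the 2 farthest libraries. With the other 10 markers of that list, Acta2 left out, r was 0.91 for Cavin1 and 0.85 for Cavin2, given as a description. Both cavins ran against the endothelial sum, with r of -0.75 for Cavin1 and -0.84 for Cavin2, and that of Cavin1 was -0.35 without the 2 farthest libraries. Cav1, Cav2, Ehd2 and Pacsin2 had r of -0.61, -0.67, -0.47 and -0.56 with the pericyte and smooth muscle sum (adjusted permutation p = 0.131, 0.0836, 0.335 and 0.175). Within groups these were -0.94, -0.95, -0.92 and -0.89, beside 0.85, 0.82, 0.96 and 0.89 with the endothelial sum, values that were not tested. With the fibroblast sum, r was -0.84 for Cav1, -0.83 for Cav2, -0.86 for Ehd2 and -0.90 for Pacsin2, with adjusted permutation p of 0.00917, 0.00920, 0.00546 and 0.00189. Spearman's rho was -0.88, -0.92, -0.90 and -0.93 for these, and r without the 2 farthest libraries was -0.79, -0.77, -0.87 and -0.87. Cavin1 and Cavin2 ran with the fibroblast sum too, at r of 0.61 (permutation p = 0.0533, adjusted p = 0.124) and 0.56 (permutation p = 0.0888, adjusted p = 0.175). Whether these differed from the relations with the pericyte and smooth muscle sum was not tested.

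Cavin3, Plvap and Mfsd2a stood apart from both sets in r over all 10 libraries. None of the 3 had an adjusted p of at most 0.05 with any other member or any marker sum. For Cavin3 r lay between -0.36 and 0.41, for Plvap between -0.35 and 0.46 and for Mfsd2a between -0.40 and 0.41. Within groups, however, Plvap had an r of -0.95 with Cav2, -0.89 with Cav1, 0.71 with Cavin1 and 0.63 with Cavin2. Its r within groups was 0.86 with the pericyte and smooth muscle sum and 0.85 with the fibroblast sum. Cavin3 had an r within groups of 0.71 with Cavin1, but of 0.18 with Cavin2. None of these values within groups was tested. The libraries share the scaling of their reads, and their marker sums contain no member.

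**Figure D4:**
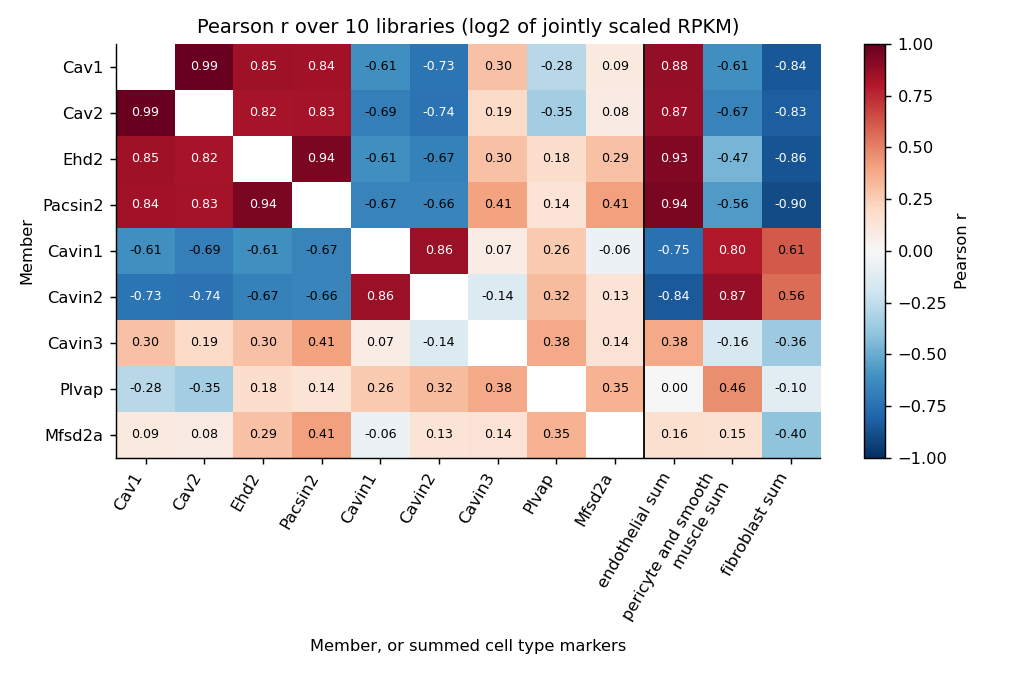
Pearson's r over 10 libraries (log2 of jointly scaled RPKM) between the 9 members and with the summed markers of 3 cell types, from blue (-1) through white (0) to red (1). Cav1, Cav2, Ehd2 and Pacsin2 form a red block together with the endothelial sum, Cavin1 and Cavin2 another with the pericyte and smooth muscle sum, and r between these blocks is negative.

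**Figure D5:**
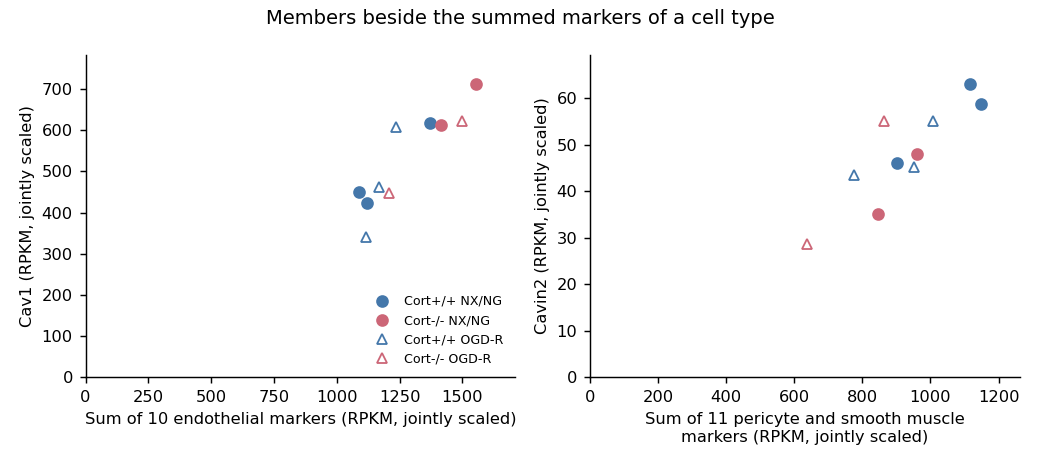
Cav1 against the sum of 10 endothelial markers and Cavin2 against the sum of 11 pericyte and smooth muscle markers (mostly Acta2), in jointly scaled RPKM with a point for each library and axes that start at 0. Over the 10 libraries each gene rises with the sum of its panel (r = 0.88 and r = 0.87 on the log2 scale), and r was not computed within genotypes or environments.

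Over all 15713 genes compared over the 10 libraries, Cav2 was the gene whose pattern was most like that of Cav1 (r = 0.99), followed by Gm20559, Mfap3l, Serinc3 and Clcn3 (each r = 0.98). Hdac5 and Tsku ran most against Cav1, with r of -0.97 and -0.96. For Plvap the most alike were Lrrc3b (r = 0.98), Dusp4 (r = 0.97), Gm43791 (r = 0.96), Syt17 (r = 0.96) and Hs6st2 (r = 0.95), and Mr1 (r = -0.95) and Usp53 (r = -0.93) ran most against it. For Mfsd2a, with its few reads, they were Gm16146 (r = 0.90), Gm45188 (r = 0.89), Gm15772 (r = 0.87), Secisbp2 (r = 0.86) and Zfp619 (r = 0.85), against Alg12 (r = -0.93) and Zfp941 (r = -0.90). These values are a description of the extremes of many genes.

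Other genes of vesicle traffic were taken from 6 lists, and 0 of their genes reached an FDR of 0.05 or less in any comparison. Of the caveolar coat relatives (other EHD, pacsin, dynamin and flotillin genes), 8 of 12 were tested under NX/NG in Cort-/- against Cort+/+ BECs, with 1 higher and 1 lower at an unadjusted p under 0.05, where 12.5% of all genes were in either direction. These were Ehd4 (log2 fold change 0.41, FDR = 0.354) and Dnm1, a dynamin that severs vesicles (-1.13, FDR = 0.290). Of the 14 clathrin endocytosis genes all were tested and 1 was lower, the adaptor Dab2 (-0.34, FDR = 0.384), followed by Ap2b1 (0.13, FDR = 0.414). Of the 12 genes of endosomal sorting and recycling 1 was lower, the tethering factor Eea1 (-0.15, FDR = 0.364), followed by Rab4a (-0.33, FDR = 0.401). Of the 9 vesicle fusion genes 0 passed, and those of lowest p were Vamp2 (-0.17) and Stx4a (-0.19).

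Receptors that carry cargo across or into endothelium had 3 of 13 members lower and 0 higher at an unadjusted p under 0.05, where 7.51% of all genes tested were lower and 5.03% higher. Fcgrt, the Fc receptor that returns IgG and albumin from endosomes, had a log2 fold change of -0.43 (SE 0.09, limma FDR = 0.238), and Lrp1, a lipoprotein receptor, had -0.95 (SE 0.20, limma FDR = 0.257). The third was Igf2r (-0.50, FDR = 0.286). Of the regulators of Mfsd2a and of barrier vesicles 3 of 15 were higher and 0 lower, beside the same shares of all genes, led by the pericyte-recruiting ligand Pdgfb (0.45, FDR = 0.337) and the endothelial transcription factor Sox17 (0.52, FDR = 0.355), with Fzd4, a Wnt receptor, as the third (0.34, FDR = 0.389). The study itself lists Pdgfb and Sox17 among the genes upregulated in Cort-/- BECs under NX/NG. The medians of the 6 lists lay between -0.10 and 0.05.

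After OGD-R the same lists had 1 gene higher and 1 lower at an unadjusted p under 0.05 between the genotypes, Ehd4 (log2 fold change 0.36) and Fcgrt (-0.41), each with an FDR of 0.999, where 3.59% of all genes were. The genes of lowest p after these in their lists were Flot1 (-0.39) and Acvrl1 (0.21). In the other lists they were Epn1 (0.15) and Dab2 (-0.16) for clathrin, Rab14 (-0.18) and Rab11a (-0.17) for endosomes, Stxbp3 (-0.24) and Vamp3 (-0.17) for fusion, and Fzd4 (0.27) and Foxf2 (-0.13) for the regulators. Ehd4 and Fcgrt were thus below an unadjusted p of 0.05 in both environments, where 12.5% of all genes were under NX/NG and 3.59% after OGD-R. The share of all genes below it in both was not computed, and these genes were picked by their p-values. The comparisons share no library, but whether the environments shared pools of mice is not known.

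In Cort+/+ BECs after OGD-R against NX/NG, 2 genes of the lists were higher at an unadjusted p under 0.05, Fcgrt (0.25) and Foxf2 (0.25), each with an FDR of 0.748, where 3.95% of all genes tested were higher. The next genes by p were Ager (0.73) among the receptors, Ehd4 (-0.31) and Ehd3 (-0.34) among the coat relatives, Cltc (-0.17) and Ap2s1 (0.13) for clathrin, Snx1 (0.14) and Eea1 (-0.19) for endosomes, and Vamp2 (0.11) and Stx4a (0.14) for fusion. In Cort-/- BECs 1 gene was higher, Lrp1 (0.64), and 3 were lower, Ehd3 (-0.64), Ehd4 (-0.37) and Vps35, a subunit of the retromer (-0.30), with an FDR of at least 0.913, where 2.09% of all genes were higher and 1.79% lower. There the next were Fcgrt (0.27), Rab11a (-0.18), Cltc (-0.18) and Epn2 (-0.21), Vamp2 (0.26) and Stxbp3 (-0.18), and Foxf2 (0.14). In the interaction 0 genes of the 6 lists had an unadjusted p under 0.05. The lowest p were those of Dnm1 (0.67) and Ehd3 (-0.31), Dab2 (0.17) and Ap2b1 (-0.07), and Vps35 (-0.16) and Rab5a (-0.13) in their lists. In the other lists they were those of Vamp3 (-0.23) and Vamp2 (0.14), Ager (-1.09) and Igf2r (0.35), and Pdgfb (-0.31) and Sox17 (-0.39).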

How the data were processed

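RNA-seq of 10 libraries was used, grouped by the labels. The authors ran their reanalyzerGSE pipeline, and their processing notes name edgeR; the aligner, counter and genome build are not given in the sources used here. The deposited RPKM values are per library, scaled by the authors within each environment. Columns of the authors' own comparisons (fold changes and p-values) were not used. Reads were recovered from RPKM and gene length (at least 99.996% of values within 0.05 of a whole read), and comparisons of environments used reads of both tables under 1 scaling (trimmed mean of M values). Comparisons were fitted with limma 3.58.1 in R 4.3.3 on log2(RPKM + 0.1), with the variance trend enabled and genes averaging under 0.5 RPKM left out; the Benjamini-Hochberg threshold for a call was 0.05; a fold change on this scale understates that of low genes. Limma-voom used the recovered reads. The fits were also run on simulated reads with the same spread for every gene, which does not show their power or error rate in these libraries. P-values of the fits measure the spread between pools, and a depth of 12386048 to 12390428 reads leaves genes of a few reads imprecise. Ratios to marker sums were added after the data were seen. Named are the 9 members, folds of Cav1, Plvap, Mfsd2a and members at an unadjusted p under 0.05, the 2 genes of lowest p in each list, and the 5 genes most and 2 least like Cav1, Plvap and Mfsd2a. Igf2r, Fzd4 and Gtpbp3 were named after their values were seen. The result of 1 listed gene is not reported here. Members and lists were chosen with earlier results of these data known.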

Additional observations from a re-analysis of the deposited data

How the results depend on the processing

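No member was called in any comparison under any alternative run: a pseudocount of 1, no filter, at least 1 RPKM in at least 2 libraries, limma-voom, median-of-ratios or quantile scaling, all 4 groups in one fit, a replicate block, each library left out in turn, and both libraries low in ribosomal RNA left out. The number of all genes called, 0 in each comparison, did move. Between genotypes under NX/NG it was 54 with limma-voom and 3 with all groups in one fit. After OGD-R it was 2 with a pseudocount of 1, 1 with limma-voom and 5 with all groups in one fit. In Cort+/+ BECs 9 genes were called between environments without the filter, in Cort-/- BECs 1 with all groups in one fit, and for the interaction 3 without the filter. With a library left out this number was 0 in each comparison, apart from 0 to 2 for the interaction. Between genotypes under NX/NG 0 of the 8 members turned in sign under any alternative; after OGD-R 5 did, between environments 4 in each genotype, and in the interaction 8. With a library left out, the log2 fold changes between genotypes after OGD-R ranged from -0.029 to 0.45 for Cav1, -0.045 to 0.54 for Cav2, -0.24 to 0.046 for Cavin1, -0.73 to 0.21 for Cavin2 and -0.069 to 0.30 for Cavin3, with the ends set by the Cort-/- libraries. Without both libraries low in ribosomal RNA Cavin3 stood at -0.13. In Cort+/+ BECs between environments they ranged from -0.30 to 0.11 for Cav1, -0.33 to 0.14 for Cav2, -0.057 to 0.13 for Cavin3 and -0.099 to 0.00067 for Pacsin2; Cav1 and Cav2 turned without NX/NG replicate 3 or OGD-R replicate 1, at 0.11 and 0.14 without the latter or both libraries low in ribosomal RNA. In Cort-/- BECs they ranged from -0.13 to 0.16 for Cavin1, -0.52 to 0.42 for Cavin2, -0.23 to 0.14 for Cavin3 and -0.71 to 0.17 for Plvap, with the ends set by the OGD-R libraries, and Cavin1 was -0.13 without both libraries low in ribosomal RNA. The interaction ranged from -0.46 to 0.016 for Cav1, -0.53 to 0.063 for Cav2, -0.034 to 0.25 for Cavin1, -0.30 to 0.64 for Cavin2, -0.27 to 0.097 for Cavin3, -0.12 to 0.11 for Ehd2, -0.10 to 0.0042 for Pacsin2 and -0.13 to 0.80 for Plvap. Without both libraries low in ribosomal RNA it was -0.030 for Cavin1, -0.20 for Cavin2 and 0.078 for Ehd2, and Ehd2 was 0.0035 with median-of-ratios and 0.015 with quantile scaling. Whether the replicate numbers pair the samples was not settled. Deviations of same-numbered libraries had correlations of -0.40 to 0.13, but in a group of 2 libraries the deviations mirror each other. In Cort+/+ BECs between environments the replicate block kept the log2 fold changes. It lowered the SE of Cav1 from 0.24 to 0.14, of Cavin2 from 0.15 to 0.08 and of Plvap from 0.43 to 0.31, and raised that of Cavin1 from 0.075 to 0.081. There 6.59% of all genes had an unadjusted p under 0.05, beside 6.5% without the block. Under NX/NG only Cort+/+ has an analysed replicate 3, so the replicate block takes up that library. Its log2 fold changes equal those of the fit without Cort+/+ replicate 3, at 0.59 for Cav1, and are no separate check. With the block 0 members and 0 genes were called, and 5 members had an unadjusted p under 0.05 in place of 2 (14.5% of all genes in place of 12.5%). After OGD-R the block equals the fit without Cort+/+ replicate 2 in the same way, at 0.22 for Cav1. Depth limits Mfsd2a, at 5 to 16 reads per library.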
